A study of Mus musculus with 41 samples.

Results

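Messenger RNA levels of 10 genes of bile acid synthesis and uptake were followed from healthy mouse liver to liver cancer. The genes were taken by symbol from a table of 24511 genes. They are 6 synthesis and conjugation enzymes (Cyp7a1, Cyp8b1, Cyp27a1, Cyp7b1, Akr1d1 and Baat) and 4 uptake transporters (Slc10a1, Slco1a1, Slco1a4 and Slco1b2). All 10 were in the table and passed the filter on low values.

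Hepatocytes make bile acids from cholesterol. Cyp7a1 opens the classical route as its rate-limiting enzyme, and Cyp8b1 directs it toward cholic acid. Cyp27a1 and Cyp7b1 serve the alternative route, which starts with oxidation of the sterol side chain. Akr1d1 reduces the steroid ring, and Baat joins the finished acid to taurine or glycine. Bile acids returning from the gut are taken up from blood by Slc10a1, the sodium-dependent transporter NTCP, and by the sodium-independent organic anion transporters Slco1a1, Slco1a4 and Slco1b2. High bile acid levels repress synthesis through the receptor FXR, encoded by Nr1h4, and its target Nr0b2.

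Polyadenylated RNA was sequenced from liver and liver tumours of male C57BL/6 mice, and 35 libraries in 11 groups were used. Healthy livers of the NC groups came from the genotypes IgAkMup, CD8kMup, MupHe and B6. On a high-fat diet (HFD), fatty livers described as healthy (HFD control) came from IgAkCLM and B6, steatohepatitis livers (NASH) from IgAkMup and MupHe, and hepatocellular carcinoma tissue (HCC) from IgAkMup, CD8kMup and MupHe. Groups held 3 libraries, except IgAkMup HCC and MupHe HCC with 4. The labels expand neither the genotype names nor NC, and they give no age, allele, promoter or time on diet and do not say whether replicates are separate animals, so that p-values measure only the spread between these samples, which may be technical.

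Values are the authors' regularized log2 (rlog) values, on which a difference of 1 is a 2-fold change of the regularized level. Folds given below are of these levels, and folds of the counts are unknown. They are not divided by transcript length, so levels are compared between groups and never between genes. The depth behind them is unknown. Within a group, values are listed by library number, which runs 5, 7, 8 and 9 in IgAkMup HCC, 2, 3, 4 and 7 in MupHe HCC, 3, 4 and 8 in CD8kMup HCC, 2, 3 and 6 in IgAkMup NASH, 1, 2 and 6 in MupHe NASH, and 1, 2 and 3 elsewhere. Numbers are from sample titles in NC groups and from column names in all other groups. Columns of those other groups were matched to a group but not to single samples. Differences carry standard errors, and adjusted p-values are from limma with the Benjamini-Hochberg method over 12337 genes. A gene is said to have risen or fallen where its adjusted p was under 0.05.

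The tumours lay apart from all other libraries on the first principal component, which held 47.9% of the variance. On the second, with 12.6%, MupHe HCC 3 and IgAkMup HCC 5 and 9 stood at -29.1, -28.4 and -35.6, against -5.1 to 24.7 in the other tumours. Column names hold a tag of unstated meaning, which is SS for all HCC, B6 HFD control and IgAkMup NASH libraries, and Tri for all NC, IgAkCLM HFD control and MupHe NASH libraries. Each group has a single tag, so that tag and group cannot be told apart within a comparison that mixes them.

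Promoters of Cyp8b1, the member with the highest SD within tumour groups, and of the transporters Slc10a1, Slco1b2 and Slco1a1, which fell in tumours, are shown for the positions of motifs that liver transcription factors are known to bind. RefSeq promoters (build GRCm38.p6, 250 bases before to 50 after the start of transcription) were matched for 7 of the 10 members. Slc10a1 has 2 starts, which gave 8 promoters. Capitals mark matches to CAAAGTCCA, a repeat bound by HNF4, to GTTAAT, part of a site of HNF1, and to TTCNNNGAA, a site of STAT5, searched on both strands.
Cyp8b1, chr9:121916256-121916555, minus strand: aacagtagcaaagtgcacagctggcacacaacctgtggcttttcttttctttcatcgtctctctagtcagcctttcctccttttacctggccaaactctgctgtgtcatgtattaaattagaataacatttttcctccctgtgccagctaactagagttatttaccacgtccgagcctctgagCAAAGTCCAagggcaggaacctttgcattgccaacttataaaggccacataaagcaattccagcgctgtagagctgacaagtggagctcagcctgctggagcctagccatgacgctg
Slc10a1 upstream start, chr12:80968656-80968955, minus strand: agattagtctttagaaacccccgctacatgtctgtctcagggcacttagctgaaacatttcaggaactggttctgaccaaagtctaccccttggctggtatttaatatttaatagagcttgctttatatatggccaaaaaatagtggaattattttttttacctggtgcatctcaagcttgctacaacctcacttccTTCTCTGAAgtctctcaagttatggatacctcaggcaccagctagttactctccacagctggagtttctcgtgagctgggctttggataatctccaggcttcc
Slco1b2, chr6:141629268-141629567, plus strand: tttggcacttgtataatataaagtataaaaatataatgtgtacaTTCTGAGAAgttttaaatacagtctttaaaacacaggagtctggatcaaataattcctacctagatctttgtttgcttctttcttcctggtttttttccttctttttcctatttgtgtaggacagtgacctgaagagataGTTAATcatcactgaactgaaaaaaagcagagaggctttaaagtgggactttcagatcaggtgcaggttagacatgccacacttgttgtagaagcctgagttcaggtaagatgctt
Slco1a1, chr6:141946913-141947212, minus strand: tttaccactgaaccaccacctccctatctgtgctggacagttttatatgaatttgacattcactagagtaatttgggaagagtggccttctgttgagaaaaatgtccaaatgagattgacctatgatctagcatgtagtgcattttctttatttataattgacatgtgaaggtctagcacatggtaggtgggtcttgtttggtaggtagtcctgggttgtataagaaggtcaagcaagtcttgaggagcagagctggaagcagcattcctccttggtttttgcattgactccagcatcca
Cyp8b1 holds the HNF4 repeat with its first base at -67 from the start, a motif found in 0.475% of 32841 promoters. Slco1b2 holds the HNF1 sequence at -66 and a STAT5 site at -206, and the upstream start of Slc10a1 holds a STAT5 site at -53. The HNF1 sequence occurred in 7.1% and the STAT5 site in 8.3% of all promoters, and the matches do not overlap one another. Slco1a1, the member with the largest fall in tumours, is shown with no match, and none was found in the windows of Akr1d1, Cyp27a1, Slco1a4 or the downstream start of Slc10a1. A match is a description of letters, and its absence says only that these letters are not in the window.

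Slco1b2 (141629452-141686646), Slco1a4 (141805438-141856284) and Slco1a1 (141907281-141946962) lie within one stretch of chromosome 6. The other members are spread over chromosomes 1, 3, 4, 6, 9 and 12, with Cyp7a1 and Baat both on chromosome 4. These positions are from RefSeq on the same build.

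The first comparison set tumours against NASH livers of the same genotype. Uptake transporters fell in tumours without exception, and 4 of the 6 synthesis genes fell as well. Over both genotypes the median difference was -3.15 for the 4 transporters and -1.44 for the 6 synthesis genes, against 0.013 for all genes. In all, 8 of 10 members were lower, where 22.9% of all genes were. Cyp8b1 and Akr1d1 were the exceptions.

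**Figure D1:**
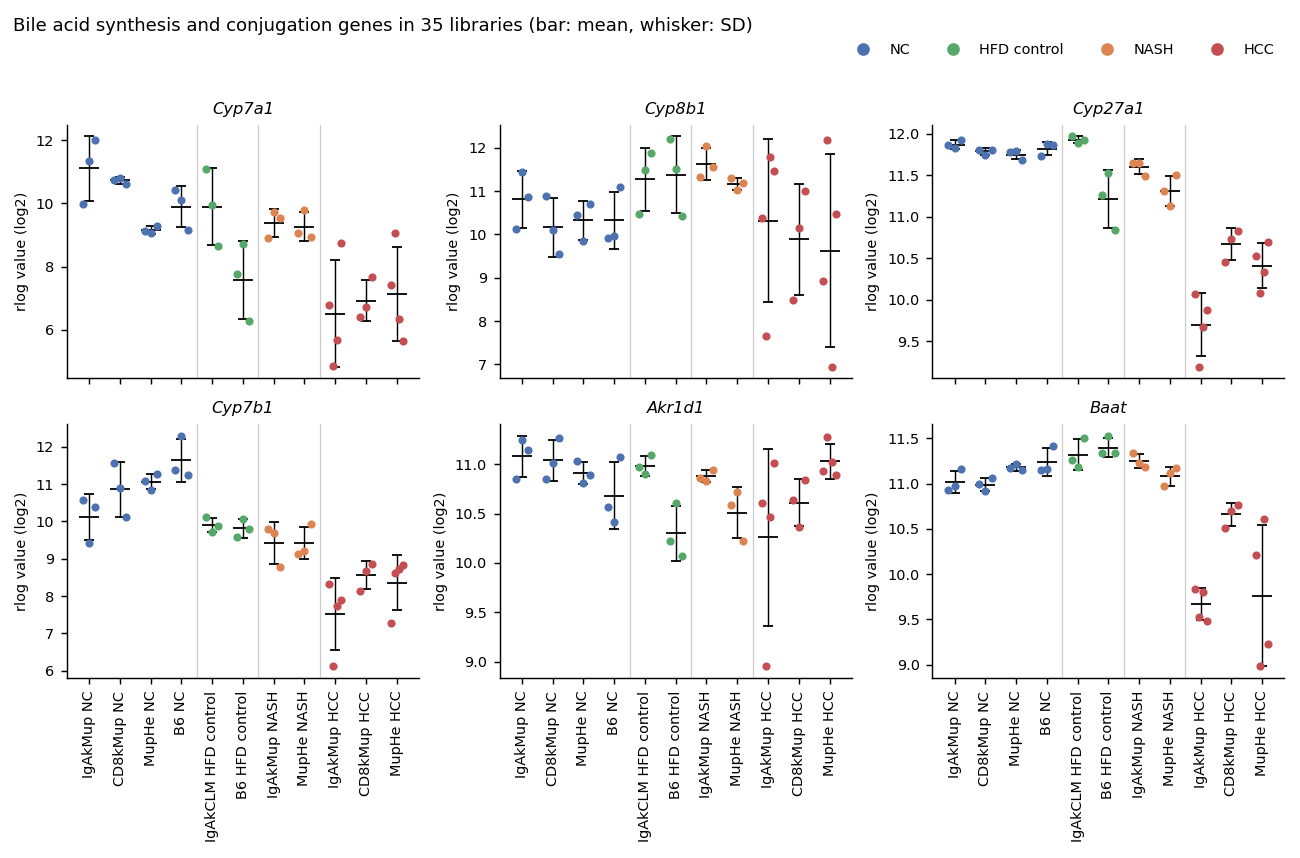
Each dot is a library, with rlog values (log2) on the vertical axis of its own scale per gene, and groups from NC livers through HFD control and NASH livers to HCC on the horizontal axis; bars are group means and whiskers SD (n = 3, or 4 in IgAkMup HCC and MupHe HCC). Cyp27a1 and Baat in tumours lie below all NASH livers, while Cyp8b1 in tumours spans 6.94 to 12.18.

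Cyp7a1 stood at 6.78, 4.84, 5.67 and 8.76 in IgAkMup HCC, against 8.90, 9.74 and 9.54 in IgAkMup NASH. It stood at 7.43, 9.05, 6.35 and 5.63 in MupHe HCC, against 9.07, 9.78 and 8.95 in MupHe NASH. The IgAkMup groups did not overlap, with IgAkMup HCC 9 only just under its NASH livers, and MupHe HCC 3 lay inside the range of the MupHe NASH livers. Over both genotypes Cyp7a1 fell by 2.52 ± 0.52 (adjusted p = 0.000239), a 5.72-fold lower level. The fall was -2.88 ± 0.74 in IgAkMup (adjusted p = 0.00244) and -2.15 ± 0.74 in MupHe (adjusted p = 0.0272). The MupHe call was lost without MupHe HCC 4 or 7 or any MupHe NASH library, with adjusted p of 0.0527 to 0.104.

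Cyp27a1, which oxidises the sterol side chain, had a much tighter spread. It stood at 10.07, 9.19, 9.67 and 9.88 in IgAkMup HCC, against 11.65, 11.65 and 11.49 in IgAkMup NASH. In MupHe the values were 10.53, 10.08, 10.34 and 10.70 in HCC, against 11.31, 11.13 and 11.50 in NASH. Neither pair of groups overlapped. The fall was -1.89 ± 0.16 in IgAkMup (adjusted p = 2.05e-09) and -0.90 ± 0.16 in MupHe (adjusted p = 0.000129). The test of the difference between these falls passed, at -1.0 ± 0.23 (adjusted p = 0.00679), where 10% of all genes passed. Cyp27a1 was the only one of the 10 members past it. Fitted on those 14 libraries alone, the difference kept its size at an adjusted p of 0.143, and over 21 alternatives the adjusted p ranged from 0.00126 to 0.143.

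Cyp7b1, the hydroxylase that follows Cyp27a1 in the alternative route, stood at 8.33, 6.11, 7.74 and 7.90 in IgAkMup HCC, against 9.81, 9.69 and 8.77 in IgAkMup NASH. It stood at 7.27, 8.62, 8.73 and 8.83 in MupHe HCC, against 9.12, 9.22 and 9.92 in MupHe NASH. Every tumour lay below the NASH livers of its genotype. Cyp7b1 fell by 1.90 ± 0.43 in IgAkMup (adjusted p = 0.000734) and differed by -1.06 ± 0.43 in MupHe, which missed the threshold at an adjusted p of 0.0592. The MupHe difference was -1.21 without MupHe HCC 7 (adjusted p = 0.0469) and -0.69 without MupHe HCC 2 (adjusted p = 0.211). Its difference over both genotypes was -1.48 ± 0.30 (adjusted p = 0.000199).

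Baat, the conjugating enzyme, stood at 9.84, 9.53, 9.80 and 9.48 in IgAkMup HCC, against 11.34, 11.23 and 11.19 in IgAkMup NASH. In MupHe the values were 10.21, 8.99, 10.61 and 9.23 in HCC, against 10.97, 11.12 and 11.17 in NASH. No tumour reached a NASH liver. The falls were -1.59 ± 0.22 in IgAkMup (adjusted p = 2.19e-06) and -1.33 ± 0.22 in MupHe (adjusted p = 4.78e-05), and the difference between them was -0.26 with a 95% interval from -0.89 to 0.37. Fitted on the MupHe libraries alone, Baat had an adjusted p of 0.0605.

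Cyp8b1 was the most variable of the 10 genes among tumours. It stood at 10.37, 7.65, 11.80 and 11.47 in IgAkMup HCC, against 11.32, 12.05 and 11.56 in IgAkMup NASH. In MupHe the values were 8.93, 12.18, 6.94 and 10.48 in HCC, against 11.30, 11.02 and 11.18 in NASH. Some tumours lay more than 3 log2 units below NASH livers while others lay among or above them. Over both genotypes the difference was -1.43 ± 0.60 (adjusted p = 0.0525). It passed without MupHe HCC 3 (-1.85, adjusted p = 0.00702), MupHe HCC 7 (-1.57, 0.042), IgAkMup HCC 8 (-1.67, 0.0246) or IgAkMup HCC 9 (-1.62, 0.0327), and over 22 alternatives the adjusted p ranged from 0.00433 to 0.161.

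Akr1d1, the ring reductase, stood at 10.61, 8.95, 10.47 and 11.01 in IgAkMup HCC, against 10.86, 10.83 and 10.94 in IgAkMup NASH. It stood at 10.93, 11.28, 11.02 and 10.89 in MupHe HCC, against 10.59, 10.72 and 10.22 in MupHe NASH. IgAkMup HCC 7 stood alone at the bottom, and all MupHe tumours lay above the MupHe NASH livers. The differences were -0.62 ± 0.27 in IgAkMup (adjusted p = 0.067) and 0.52 ± 0.27 in MupHe (adjusted p = 0.147), and the test between them gave -1.14 ± 0.39 (adjusted p = 0.0559), which passed without IgAkMup HCC 5, 8 or 9 (adjusted p = 0.0165 to 0.048). Over both genotypes the difference was -0.05, with a 95% interval from -0.44 to 0.35. Without IgAkMup HCC 5 or 9 the IgAkMup difference passed, at -0.73 (adjusted p = 0.0444) and -0.87 (adjusted p = 0.0101). Without IgAkMup HCC 7 it was -0.18 (adjusted p = 0.423), and the test between genotypes gave -0.70 (adjusted p = 0.0537).

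Among the transporters, Slc10a1 stood at 8.52, 8.04, 9.67 and 8.48 in IgAkMup HCC, against 11.85, 11.81 and 11.81 in IgAkMup NASH. In MupHe it stood at 9.27, 6.82, 8.0 and 9.31 in HCC, against 11.54, 11.52 and 12.07 in NASH. The NASH livers sat within a narrow band and every tumour was far under it. Slc10a1 fell by 3.25 ± 0.31 over both genotypes (adjusted p = 1.99e-09), a 9.54-fold lower level. The differences were -3.15 ± 0.43 in IgAkMup (adjusted p = 2.14e-06) and -3.36 ± 0.43 in MupHe (adjusted p = 1.77e-06).

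**Figure D2:**
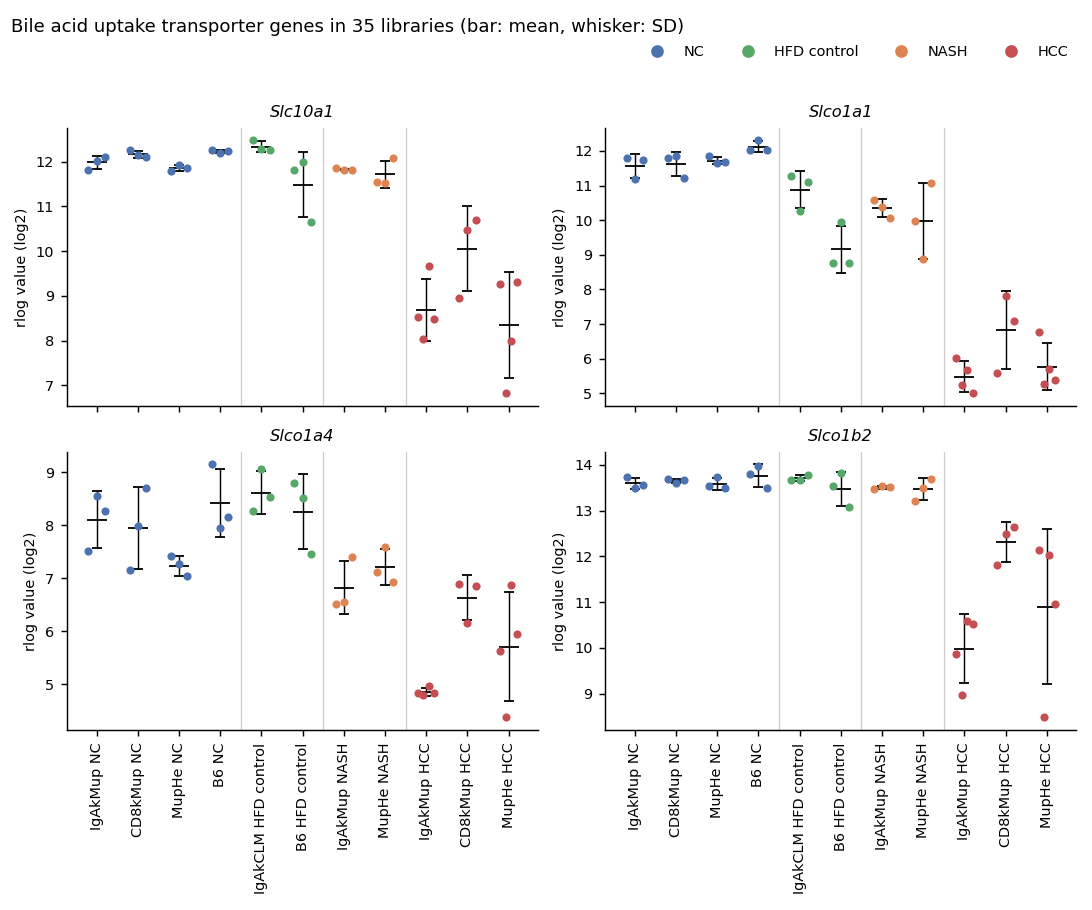
Each dot is a library, with rlog values (log2) on the vertical axis of its own scale per gene, and groups from NC livers through HFD control and NASH livers to HCC on the horizontal axis; bars are group means and whiskers SD (n = 3, or 4 in IgAkMup HCC and MupHe HCC). Slc10a1, Slco1a1 and Slco1b2 in tumours lie below all NASH livers, and Slco1a1 also lies lower in HFD control and NASH livers than in NC livers.

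Slco1a1, a transporter of bile acids and steroid conjugates that is known for higher expression in male than in female mouse liver, had the largest fall of the 10 genes in both genotypes. It stood at 6.02, 5.24, 5.67 and 5.00 in IgAkMup HCC, against 10.59, 10.38 and 10.06 in IgAkMup NASH. It stood at 6.76, 5.26, 5.70 and 5.38 in MupHe HCC, against 9.99, 8.89 and 11.08 in MupHe NASH. The lowest NASH liver exceeded the highest of these tumours by more than 2 log2 units. The fall was -4.86 ± 0.44 in IgAkMup (adjusted p = 5.35e-09) and -4.21 ± 0.44 in MupHe (adjusted p = 7.77e-08), and -4.54 ± 0.31 over both (adjusted p = 7.79e-12), a 23.2-fold lower level.

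Slco1b2, a liver-restricted transporter of bile acids and drugs, stood at 9.87, 8.97, 10.58 and 10.52 in IgAkMup HCC, against 13.48, 13.54 and 13.51 in IgAkMup NASH. It stood at 12.14, 8.48, 12.04 and 10.96 in MupHe HCC, against 13.21, 13.49 and 13.70 in MupHe NASH. The tumours again lay below every NASH liver, but MupHe tumours were spread over more than 3 log2 units. The fall was -3.53 ± 0.49 in IgAkMup (adjusted p = 2.56e-06) and -2.56 ± 0.49 in MupHe (adjusted p = 0.000282). The difference between these falls was -0.96 ± 0.70 (adjusted p = 0.399), and without MupHe HCC 3 it was -1.77 (adjusted p = 0.00404). Over 21 alternatives that adjusted p ranged from 0.00404 to 0.669.

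Slco1a4, which carries bile acids and cardiac glycosides, stood at 4.83, 4.81, 4.97 and 4.84 in IgAkMup HCC, against 6.51, 6.55 and 7.40 in IgAkMup NASH. In MupHe it stood at 5.64, 4.38, 6.87 and 5.95 in HCC, against 7.12, 7.6 and 6.94 in NASH. IgAkMup tumours shared nearly the same level, whereas MupHe HCC 4 lay just under its NASH livers. The differences were -1.96 ± 0.42 in IgAkMup (adjusted p = 0.000458) and -1.51 ± 0.42 in MupHe (adjusted p = 0.00736).

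By genotype, 8 of 10 members were lower in IgAkMup tumours, where 20.7% of all genes were, and 7 of 10 were lower in MupHe tumours, where 14.7% were. The MupHe groups carry different tags. With IgAkMup NASH, which shares the SS tag with the tumours, in place of MupHe NASH, the count was also 7, where 14.1% of all genes were lower, with Slco1a1 at -4.57, Slc10a1 at -3.48 and Cyp27a1 at -1.18. Fitted on the 7 MupHe libraries alone, Cyp27a1, Slc10a1 and Slco1a1 were lower, 3 of 10 members, where 4.44% of all genes were. Without the 3 tumours that stood apart on the second component, 9 members were lower over both genotypes, where 21.9% of all genes were, with Cyp7a1 at -3.47, Slc10a1 at -2.91 and Slco1a1 at -4.46.

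**Figure D3:**
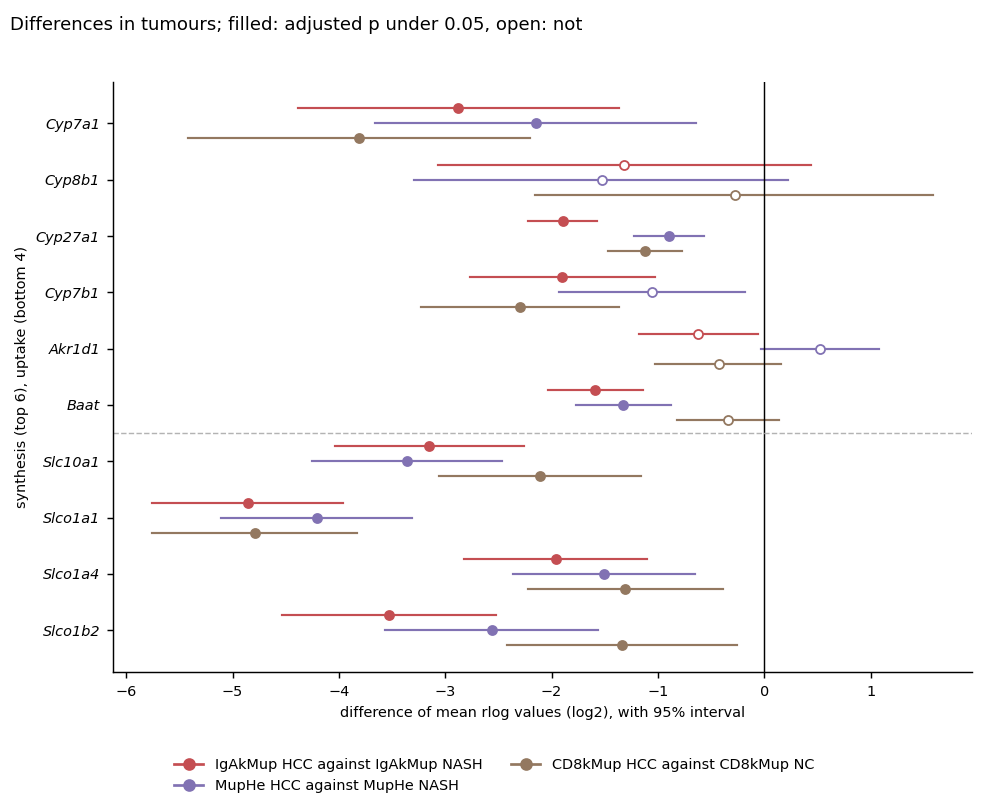
Differences of group means (log2, horizontal axis) for the 6 synthesis genes above and the 4 uptake genes below the dashed line, with 95% intervals; red is IgAkMup HCC against IgAkMup NASH, purple MupHe HCC against MupHe NASH and brown CD8kMup HCC against CD8kMup NC, and filled points have an adjusted p under 0.05. Slco1a1 lies furthest left in all 3 comparisons, between -4.86 and -4.21, and Cyp8b1 and Akr1d1 have open points throughout.

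Tumour and NASH tissue also differed in markers of cell types, given here as summed levels on the log2 scale. Against NASH, the HCC ranges cover all 11 tumours, CD8kMup included. Counts and medians there are from IgAkMup and MupHe tumours alone, where 22.9% of all genes were lower and 25.5% higher. The hepatocyte list ran from 19.15 to 20.68 in all 11 HCC libraries, against 19.84 to 20.19 in 6 NASH libraries. Of its 11 tested genes 3 were lower in HCC (Apoc3, Ttr and Apoh), a share not far from that of all genes. Its median difference was -0.06, against 0.013 for all genes. The Kupffer cell list ran from 8.51 to 12.40 in HCC, against 12.08 to 12.54 in NASH, with 8 of 8 genes lower and a median of -2.04. The recruited macrophage list ran from 9.82 to 11.12 in HCC, against 8.74 to 9.03 in NASH, with 6 of 7 higher, and the cholangiocyte list from 9.43 to 15.27 in HCC, against 10.06 to 10.97 in NASH, with 3 of 8 higher. The cholangiocyte marker Aqp5 was near 0 in the table and was not tested. The part of these cell types in the members' falls was not tested. For CD8kMup HCC against NC, 17.0% of all genes were lower, and 2072 of 12337 genes were higher. In CD8kMup HCC the Kupffer list ran from 11.97 to 12.40, against 12.19 to 12.39 in CD8kMup NC, with 4 of 8 genes lower, and the hepatocyte list from 19.57 to 19.69, against 20.04 to 20.12, with 0 of 11 called in limma and 0 at an unadjusted p under 0.05. There the recruited macrophage list ran from 9.86 to 10.37 in HCC, against 8.33 to 8.43 in NC, with 6 of 7 higher, and the cholangiocyte list from 11.22 to 12.44 in HCC, against 9.93 to 10.20 in NC, with 1 of 8 higher. In tissue RNA, fewer cells that express a gene and less RNA per cell cannot be told apart.

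Individual tumours were then set against the 6 NASH livers of both genotypes together, as a description. Cyp27a1, Baat, Slc10a1, Slco1a1 and Slco1b2 lay below every NASH liver in 11 of 11 tumours, CD8kMup tumours included. Cyp7a1 did so in 10 tumours, Cyp7b1 in 9, and Cyp8b1 and Slco1a4 in 8 each. Akr1d1 did so in 1 tumour and lay above every NASH liver in 3. The share of all genes that separate in this way is not given, so that these counts do not set the members apart.

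**Figure D4:**
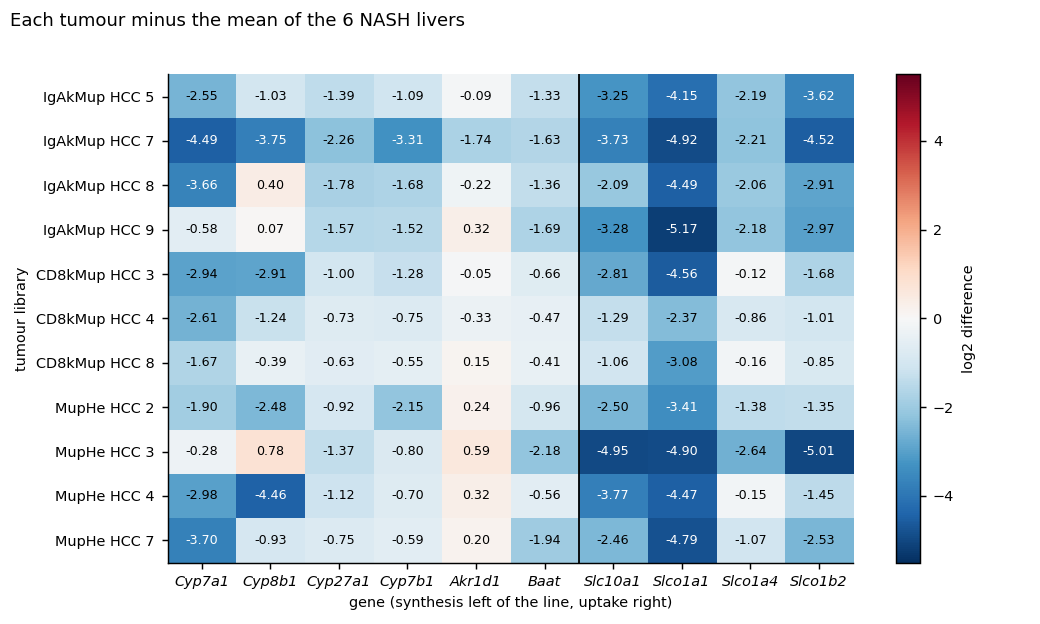
Each cell is the rlog value of a gene (columns, synthesis left and uptake right of the line) in a tumour library (rows) minus the mean of the 6 NASH livers, on a log2 scale, blue for lower and red for higher. Slco1a1 is blue in every row, from -5.17 to -2.37, while Cyp8b1 runs from -4.46 in MupHe HCC 4 to 0.78 in MupHe HCC 3.

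MupHe HCC 3 combined very low transporter levels with Cyp7a1 near and Cyp8b1 above the NASH mean, while some other synthesis genes were low. Its differences from that mean were -5.01 for Slco1b2, -4.95 for Slc10a1 and -2.64 for Slco1a4, each the lowest of the 11 tumours, and -4.90 for Slco1a1. Its Cyp7a1 differed by -0.28 and its Cyp8b1 by 0.78, and its Cyp8b1 level of 12.18 was the highest in any tumour. Its Baat differed by -2.18, also the lowest of the 11 tumours, its Cyp27a1 by -1.37, its Cyp7b1 by -0.8 and its Akr1d1 by 0.59. IgAkMup HCC 9, another of the 3 tumours apart on the second component, had -0.58 for Cyp7a1, 0.07 for Cyp8b1 and -5.17 for Slco1a1.

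IgAkMup HCC 7 was low in every synthesis gene. All 10 genes lay below the lowest NASH liver there, with -4.49 for Cyp7a1, -3.75 for Cyp8b1, -3.31 for Cyp7b1 and -1.74 for Akr1d1. CD8kMup HCC 8 had the mildest set of differences for Slc10a1 (-1.06), Slco1b2 (-0.85) and Baat (-0.41) among the 11 tumours, while its Slco1a1 difference was -3.08.

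The SD of Cyp8b1 was 1.28 to 2.23 within tumour groups, against 0.14 to 0.89 within liver groups, and its 11 tumours spanned a 37.8-fold range. Cyp7a1 spanned an 18.5-fold range, Slco1b2 17.9-fold and Slc10a1 14.7-fold among tumours, whereas Cyp27a1 spanned 3.11-fold and Baat 3.41-fold.

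CD8kMup tumours could be set only against NC livers of their genotype, so that tumour, diet and tag cannot be told apart. All 4 transporters and 3 of the 6 synthesis genes fell, 7 of 10 in all, where 17.0% of all genes were lower. The median difference was -1.73 for the transporters and -0.77 for the synthesis genes, against 0.011 for all genes.

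Cyp7a1 stood at 6.39, 6.72 and 7.66 in CD8kMup HCC, against 10.75, 10.82 and 10.62 in CD8kMup NC. The groups lay far apart, and the difference of -3.81 ± 0.79 (adjusted p = 0.000514) was a 14-fold lower level. Slco1a1 stood at 5.60, 7.80 and 7.08 in CD8kMup HCC, against 11.79, 11.86 and 11.22 in CD8kMup NC, a difference of -4.79 ± 0.47 (adjusted p = 3.76e-08). No CD8kMup tumour overlapped an NC liver for either gene. The differences of the other called members were -2.30 ± 0.45 for Cyp7b1 (adjusted p = 0.000329), -2.11 ± 0.46 for Slc10a1 (adjusted p = 0.00091) and -1.12 ± 0.17 for Cyp27a1 (adjusted p = 2.10e-05).

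Slco1a4 differed by -1.31 ± 0.45 (adjusted p = 0.0246) and Slco1b2 by -1.34 ± 0.53 (adjusted p = 0.0492) in the same comparison. Slco1a4 was lost without CD8kMup HCC 4, CD8kMup NC 2 or CD8kMup NC 3 (adjusted p = 0.061 to 0.155), and Slco1b2 without any of the 6 libraries (adjusted p = 0.0544 to 0.184). Baat stood at 10.51, 10.70 and 10.76 in CD8kMup HCC, against 10.92 to 11.06 in CD8kMup NC, and although the groups did not overlap the difference of -0.34 ± 0.23 had an adjusted p of 0.274. Cyp8b1 (-0.28 ± 0.91) and Akr1d1 (-0.43 ± 0.29) did not pass either. Fitted on the 6 libraries alone, Baat and Akr1d1 passed, at adjusted p of 0.0264 and 0.0475.

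Tumours of different genotypes share the SS tag and were compared directly, with MupHe HCC on the other side of both comparisons. In IgAkMup against MupHe tumours, 2 of 10 members were lower, both synthesis genes, where 6.01% of all genes were lower. Cyp27a1 averaged 9.70 ± 0.38 in IgAkMup HCC and 10.41 ± 0.27 in MupHe HCC (SD, n = 4 each), with no overlap, and differed by -0.71 ± 0.15 (adjusted p = 0.00382). Akr1d1 differed by -0.77 ± 0.25 (adjusted p = 0.0489), and without IgAkMup HCC 7 by -0.33 (adjusted p = 0.184). That call was also lost without any single MupHe tumour (adjusted p = 0.0571 to 0.105). The transporters did not pass, with differences from -0.92 for Slco1b2 to 0.33 for Slc10a1. Fitted on the 8 tumours alone, neither gene passed (adjusted p = 0.634 for Cyp27a1 and 0.671 for Akr1d1). Without MupHe HCC 3, Slco1b2 (-1.73, adjusted p = 9.55e-05) and Slco1a4 (-1.29, adjusted p = 0.01) were lower in IgAkMup tumours.

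In CD8kMup against MupHe tumours, 2 of 10 members were higher, where 0.705% of all genes were higher. That share ran from 0.0405% to 4.0% when single libraries were left out, and with the 7 tumours fitted alone 0 genes passed in limma, with 709 at an unadjusted p under 0.05. Slc10a1 stood at 8.96, 10.48 and 10.70 in CD8kMup HCC, against 9.27, 6.82, 8.0 and 9.31 in MupHe HCC, and was higher by 1.70 ± 0.43 (adjusted p = 0.0446). Baat was higher by 0.90 ± 0.22 (adjusted p = 0.0392). The groups overlapped for both genes. Without MupHe HCC 3 neither passed, with Slc10a1 at 1.19 (adjusted p = 0.0989) and Baat at 0.64 (adjusted p = 0.0821), and over its alternatives each ranged up to an adjusted p of 0.854. Slc10a1 was also lost without CD8kMup HCC 4 or 8 (adjusted p = 0.238 and 0.2), and Baat without MupHe HCC 7 or any CD8kMup tumour (0.0504 to 0.176). Slco1b2 passed without MupHe HCC 2 or 4 (0.0384 and 0.0247) and Slco1a4 without MupHe HCC 4 (0.0404). The 4 transporters had a median difference of 1.23, with Slco1b2 at 1.41 ± 0.49 (adjusted p = 0.141), Slco1a1 at 1.06 ± 0.44 (adjusted p = 0.219) and Slco1a4 at 0.93 ± 0.42 (adjusted p = 0.261).

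Before tumours, NASH livers were set against HFD control livers within each tag: MupHe NASH against IgAkCLM HFD control, and IgAkMup NASH against B6 HFD control. All NASH genotype names hold Mup and neither control name does, so that stage and genotype cannot be told apart. Over both pairs 1 of 10 members changed, where 0.276% of all genes were lower. This was Slco1a4.

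Slco1a4 stood at 7.12, 7.6 and 6.94 in MupHe NASH, against 8.27, 9.06 and 8.53 in IgAkCLM HFD control. In the other pair it stood at 6.51, 6.55 and 7.40 in IgAkMup NASH, against 8.80, 8.52 and 7.46 in B6 HFD control. All NASH livers lay below all HFD control livers in each pair, with B6 HFD control 3 close to the NASH range. The difference was -1.40 ± 0.45 in the first pair (adjusted p = 0.179), -1.44 ± 0.45 in the second (adjusted p = 0.24) and -1.42 ± 0.32 over both (adjusted p = 0.0149), a 2.68-fold lower level. The call over both pairs was lost without B6 HFD control 1 or 2, IgAkCLM HFD control 2 or IgAkMup NASH 3, at adjusted p of 0.054 to 0.0572. In NC livers Slco1a4 averaged 8.11 ± 0.54 in IgAkMup, 7.95 ± 0.77 in CD8kMup, 7.24 ± 0.19 in MupHe and 8.42 ± 0.64 in B6 (SD, n = 3 each). The difference between MupHe and B6 NC was -1.18 ± 0.45 without overlap (adjusted p = 0.732).

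None of the other members passed over both pairs. Cyp7a1 stood at 9.07, 9.78 and 8.95 in MupHe NASH, against 11.09, 9.94 and 8.64 in IgAkCLM HFD control, and at 8.90, 9.74 and 9.54 in IgAkMup NASH, against 7.75, 8.71 and 6.27 in B6 HFD control. The differences were -0.62 ± 0.79 and 1.82 ± 0.79, and the B6 HFD control livers were lower than all livers of the other 3 groups except for overlap of B6 HFD control 2 with IgAkCLM HFD control 3. Slco1a1 differed by -0.89 ± 0.47 in the MupHe pair and 1.19 ± 0.47 in the IgAkMup pair, and Cyp27a1 by -0.62 ± 0.17 and 0.39 ± 0.17. With IgAkCLM HFD control in place of B6 HFD control, the IgAkMup NASH differences were -0.50 for Cyp7a1, -0.53 for Slco1a1 and -0.33 for Cyp27a1. None of these differences passed (adjusted p = 0.11 to 0.877). Baat differed by -0.23 and -0.15 (adjusted p = 0.822 and 0.97) and Cyp7b1 by -0.48 and -0.39 (adjusted p = 0.806 and 0.949). Within a single pair 0 of 10 members passed in limma, where 0.559% of all genes did in the MupHe pair and 0.251% in the IgAkMup pair. At an unadjusted p under 0.05 there were 2 and 4 members, and the share of all genes at that threshold is not given. The tests of the difference between pairs did not pass for Cyp27a1 (1.01 ± 0.24, adjusted p = 0.209), Slco1a1 (2.08 ± 0.66, adjusted p = 0.609) or Cyp7a1 (2.44 ± 1.11, adjusted p = 1). Across all genes 0.0567% passed that test. Cyp27a1 passed it without B6 HFD control 2 (1.17, adjusted p = 0.047), and with array weights Cyp27a1, Slco1a1 and Akr1d1 passed. The model of all groups takes its spread partly from the more variable tumours. Fitted alone, the MupHe pair had Cyp27a1 (-0.62, adjusted p = 0.0145), Slc10a1 (-0.62, 0.0483) and Slco1a4 (-1.4, 0.0128) lower. Of all genes 745 passed there (69 in the model of all groups). With array weights these members passed too, where 1941 genes did. In the IgAkMup pair fitted alone, no member passed. With array weights Cyp7a1 (1.76, 0.0454) and Slco1a4 (-1.77, 0.00231) passed there, where 717 genes did.

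**Figure D5:**
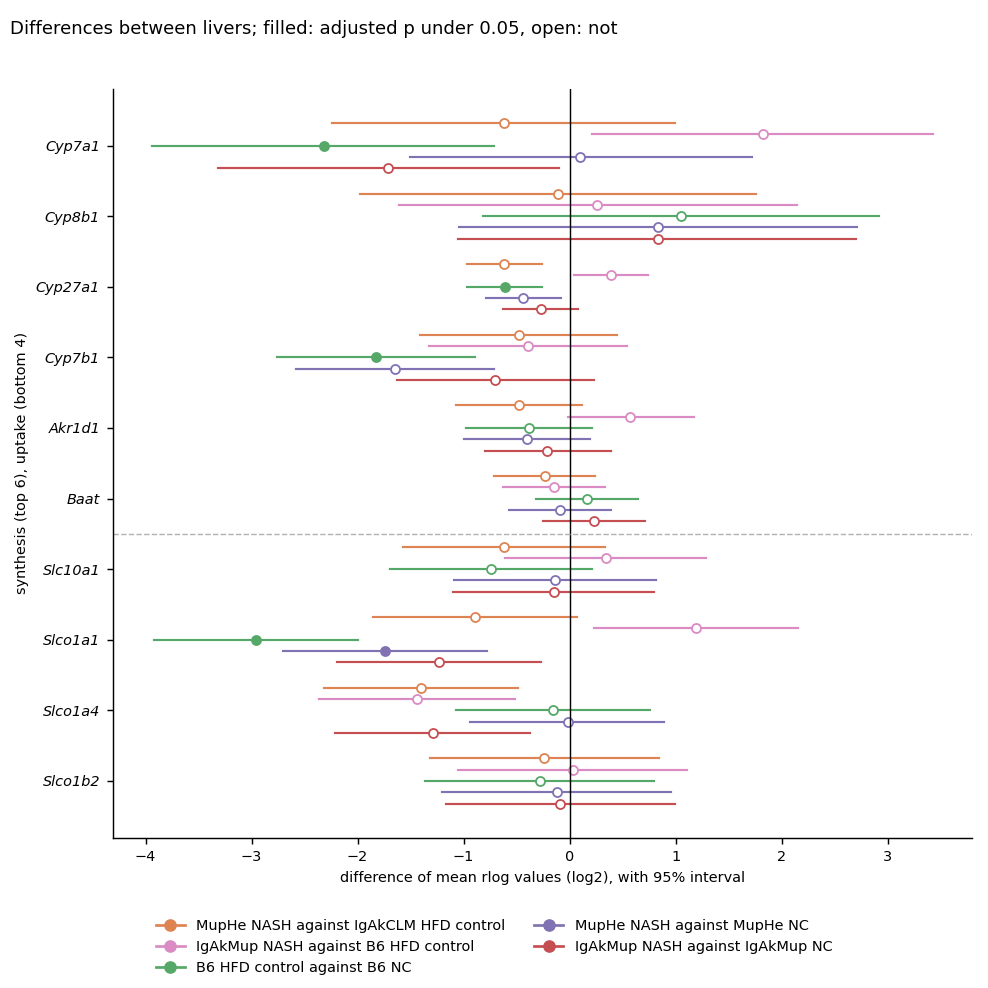
Differences of group means (log2, horizontal axis) between livers for the 6 synthesis genes above and the 4 uptake genes below the dashed line, with 95% intervals; colours mark the 5 comparisons named in the legend and filled points have an adjusted p under 0.05. Slco1a1 lies left of 0 in all 3 comparisons with NC livers, and the 5 filled points are Cyp7a1, Cyp27a1, Cyp7b1 and Slco1a1 in B6 and Slco1a1 in MupHe.

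On HFD without NASH, 4 of 10 members fell in B6 livers relative to B6 NC livers, where 11% of all genes were lower. Of these, 3 were synthesis genes (Cyp7a1, Cyp27a1 and Cyp7b1), and the other was the transporter Slco1a1. Slco1a1 stood at 8.76, 9.94 and 8.77 in B6 HFD control, against 12.03, 12.30 and 12.03 in B6 NC. Its difference of -2.96 ± 0.47 (adjusted p = 6.00e-05), with no overlap, was a 7.80-fold lower level.

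Cyp7a1 stood at 7.75, 8.71 and 6.27 in B6 HFD control, against 10.43, 10.10 and 9.17 in B6 NC, and fell by 2.32 ± 0.79 (adjusted p = 0.0353). Cyp7b1 stood at 9.58, 10.07 and 9.81 in B6 HFD control, against 11.38, 12.30 and 11.25 in B6 NC, and fell by 1.83 ± 0.45 (adjusted p = 0.00518). Neither gene overlapped between the groups. Cyp27a1 fell by 0.61 ± 0.17 (adjusted p = 0.0118). The Cyp7a1 call was lost without B6 HFD control 1 or 3 or B6 NC 1 or 2 (adjusted p = 0.0716 to 0.206), and the Cyp27a1 call without B6 HFD control 3 (-0.43, adjusted p = 0.115).

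The B6 HFD control and B6 NC libraries carry different tags. With IgAkCLM HFD control, which shares the Tri tag with the NC livers, in place of B6 HFD control, 1 of the 4 calls held, where 1.37% of all genes were lower. Cyp7b1 differed by -1.74 (adjusted p = 0.0369). Cyp7a1 then differed by -0.01 (adjusted p = 0.996), Cyp27a1 by 0.10 (adjusted p = 0.847) and Slco1a1 by -1.24 (adjusted p = 0.178). Cyp7b1 averaged 9.90 ± 0.19 in IgAkCLM HFD control and 9.82 ± 0.25 in B6 HFD control, against 11.64 ± 0.58 in B6 NC (SD, n = 3 each). The exchange also changes the genotype, so that tag, genotype and diet cannot be told apart.

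NASH livers against NC livers of the same genotype gave few calls. In MupHe, where both groups carry the Tri tag, 1 of 10 members fell, where 0.981% of all genes were lower. This was Slco1a1, at 9.99, 8.89 and 11.08 in MupHe NASH, against 11.85, 11.65 and 11.68 in MupHe NC. The groups did not overlap and the difference was -1.74 ± 0.47 (adjusted p = 0.0475). That call was lost without any one of the 6 libraries except MupHe NASH 6 (adjusted p = 0.134 to 0.345). Cyp7b1 averaged 9.42 ± 0.44 in MupHe NASH and 11.07 ± 0.21 in MupHe NC (SD, n = 3 each), with no overlap and a difference of -1.65 ± 0.45 (adjusted p = 0.0548).

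In IgAkMup NASH against IgAkMup NC livers, whose tags differ, 0 of 10 members passed in limma, where 12.9% of all genes did, and 3 had an unadjusted p under 0.05. These were Slco1a4 (-1.29 ± 0.45, adjusted p = 0.0549), Slco1a1 (-1.23 ± 0.47, adjusted p = 0.0836) and Cyp7a1 (-1.71 ± 0.79, adjusted p = 0.158). None of the 3 overlapped between the groups, but neither did Cyp27a1 (-0.27, adjusted p = 0.328) or Baat (0.23, adjusted p = 0.586). The shares of all genes without overlap, or at an unadjusted p under 0.05, are not given. Slco1a4 passed without IgAkMup NASH 6 (-1.58, adjusted p = 0.0361) or IgAkMup NC 1 (-1.59, 0.0497). The spread in these tests is shared with the more variable tumours. Fitted on their own libraries alone, 5 members passed in each genotype, where 15.6% of all genes did in MupHe and 29.2% in IgAkMup. In MupHe these were Slco1a1, Cyp7b1 (adjusted p = 0.000477), Cyp27a1 (0.0126) and Akr1d1 (0.0485), all lower, and Cyp8b1 (0.0139), which was higher by 0.83. In IgAkMup they were Slco1a1 (adjusted p = 0.000519), Slco1a4 (0.00529), Cyp7a1 (0.00799) and Cyp27a1 (0.0335), all lower, and Cyp8b1 (0.0396), again higher by 0.83.

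Healthy NC livers of different genotypes were compared last, all with the same tag and with MupHe NC shared by all 3 comparisons. None of the 10 members passed in MupHe against B6, IgAkMup against MupHe or CD8kMup against MupHe, where 0.0486%, 0.0162% and 0.0162% of all genes did in limma. Cyp7a1 stood at 9.99, 11.33 and 12.00 in IgAkMup NC and at 10.75, 10.82 and 10.62 in CD8kMup NC, against 9.13, 9.06 and 9.29 in MupHe NC. MupHe NC livers lay below both other groups without overlap. The differences were 1.95 ± 0.79 for IgAkMup and 1.57 ± 0.79 for CD8kMup against MupHe (adjusted p = 1 each). Fitted on the compared groups alone, both passed, with adjusted p of 0.0339 for IgAkMup and 6.38e-05 for CD8kMup. Of the 10 members, 1, 2 and 0 had an unadjusted p under 0.05 in the 3 comparisons. The share of all genes at that unadjusted threshold is not given.

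Ranked by group mean over the 11 groups, the 3 tumour groups held the 3 lowest places for 8 members, all but Cyp8b1 and Akr1d1. IgAkMup HCC was lowest for all members except Cyp8b1 and Slc10a1, for which MupHe HCC was lowest. The widest step in any order was 2.33, for Slco1a1 between B6 HFD control at 9.16 and CD8kMup HCC at 6.83. Most neighbours in these orders differed by no more than the larger of their SDs, from 5 of 10 neighbouring pairs for Cyp27a1 to 10 of 10 for Cyp8b1, Akr1d1 and Slco1a4.

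Other genes of the pathway were read from lists chosen by function. Of 17 tested other synthesis and conjugation enzymes, 13 were lower and 1 was higher in tumours than in NASH livers over both genotypes, with a median of -1.13, against 0.013 for all genes. Of all genes 22.9% were lower and 25.5% higher in this comparison. Slc27a5, which activates bile acids with coenzyme A before Baat acts, fell by 1.90 ± 0.20 (adjusted p = 1.47e-08). Scp2, a peroxisomal thiolase that shortens the side chain, fell by 1.89 ± 0.17, and Acaa1b, another peroxisomal thiolase, by 2.08 ± 0.33. The gene that was higher, named after its value was seen, was Cyp39a1, a hydroxylase of side-chain oxidised sterols, which rose by 1.28 ± 0.23 (adjusted p = 5.05e-05).

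Among other uptake carriers, the organic anion transporter Slco2b1 fell by 1.47 ± 0.17 in tumours (adjusted p = 6.14e-08), while the prostaglandin transporter Slco2a1 rose by 0.70 ± 0.29 (adjusted p = 0.0494). Of 6 canalicular exporters 2 fell, a share not far from that of all genes: the bile salt export pump Abcb11 by 1.77 ± 0.29 (adjusted p = 1.57e-05) and the phospholipid floppase Abcb4 by 1.32 ± 0.20 (adjusted p = 5.45e-06). Of 3 tested genes of export toward the blood 2 rose, where 25.5% of all genes did: Abcc4 by 2.95 ± 0.27 (adjusted p = 1.58e-09) and Slc51b by 0.80 ± 0.23 (adjusted p = 0.00573). Slc51a, also on that list, averaged 1.24 with a highest value of 2.22, under the filter, and was not tested. Abcc4 averaged 8.84 ± 0.93 in IgAkMup HCC, against 6.36 ± 0.19 in IgAkMup NASH, and 9.57 ± 0.73 in MupHe HCC, against 6.15 ± 0.49 in MupHe NASH (SD, n = 4 and 3). In CD8kMup HCC it averaged 9.10 ± 0.62, against 6.13 ± 0.11 in CD8kMup NC (SD, n = 3 each).

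Of 17 tested regulators, 8 were lower and 1 was higher in tumours, where 22.9% of all genes were lower and 25.5% higher, and their median was -0.47. The bile acid receptor gene Nr1h4 fell by 0.72 ± 0.12 (adjusted p = 1.74e-05) and its target Nr0b2, a repressor of Cyp7a1, by 1.24 ± 0.29 (adjusted p = 0.000895). Nr1i3, a receptor that senses drugs and bile acids, fell by 2.38 ± 0.44 (adjusted p = 5.94e-05), and the clock repressor Nr1d1 by 1.17 ± 0.38 (adjusted p = 0.0135). Fgfr4, the receptor for the intestinal hormone that lowers Cyp7a1, rose by 0.27 ± 0.09 (adjusted p = 0.0166), and its partner Klb differed by 0.19 ± 0.18 (adjusted p = 0.408). Hnf4a, a hepatocyte factor, differed by -0.12 ± 0.08 in tumours (adjusted p = 0.24) and was the 1 regulator of 17 past the threshold in NASH against HFD control livers, where it fell by 0.40.

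Cyp2c70, which makes the muricholic acids of mice and was chosen after its values were seen, was lower in all 3 comparisons of HFD livers with NC livers. It differed by -1.80 ± 0.26 in B6 HFD control (adjusted p = 2.12e-05), by -1.46 ± 0.26 in MupHe NASH (adjusted p = 0.00173) and by -0.79 ± 0.26 in IgAkMup NASH (adjusted p = 0.0452). In CD8kMup HCC it differed from CD8kMup NC by -1.35 ± 0.26 (adjusted p = 0.000268). Tags differ in all of these comparisons but MupHe, so that tag and diet cannot be told apart there. Nor can diet and stage in the NASH livers and tumours.

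The genes most alike to 3 chosen members were ranked by Pearson's r over the 11 group means, as a description. For Slc10a1 these were Aspdh (0.991), Slc16a10 (0.991) and Cyp2c37 (0.99), for Slco1a4 Chdh (0.986), Ap3m1 (0.974) and Supv3l1 (0.972), and for Cyp7a1 Rslcan18 (0.964), Cd300lg (0.963) and Gpcpd1 (0.954). Among the members, Slc10a1 and Slco1b2 had an r of 0.97, Baat and Slco1b2 0.97, Cyp27a1 and Slco1a1 0.96, and Cyp8b1 and Akr1d1 -0.16. The points of each pair share their libraries.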

How the data were processed

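Gene expression was measured by RNA sequencing in mouse liver and liver tumours. The authors deposited one table of regularized log2 (rlog) values per gene and library. STAR, HOMER, Cuffdiff, DESeq2 and the build mm10 are named in the submitters' processing notes, with no role for each. These values hold no counts, so depth and counting error are unknown. RNA came from AllPrep columns or, for some livers, Trizol and RNeasy, and libraries from a stranded polyA kit, per the labels' protocols.

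Columns were matched to samples or groups by name. 6 columns that fit both CD8kMup NASH and CD8kCLM HFD control were not used, and these groups were not analysed here. Only the 12337 of 24511 genes that averaged 3 or more in the 35 libraries entered the fit. One limma model (version 3.58.1, R 4.3.3) with 11 groups and a mean-variance trend gave each difference, with Benjamini-Hochberg adjustment over all kept genes and a threshold of 0.05. The procedure was tested on simulated data.

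The 10 members and all lists were chosen with earlier results of these data known. Named besides the members were at most the 3 most changed genes past the threshold of each other list in HCC against NASH and in NASH against HFD control, with Nr1h4, Nr0b2, Fgfr4, Klb and Abcb11, and the 3 genes most alike to Cyp7a1, Slc10a1 and Slco1a4. Cyp39a1, Cyp2c70 and the marker genes were named after their values were seen. Alternatives were no filter or a minimum mean of 5, separate fits, median centring, quantile normalization, array weights, no trend, exchanged groups, a replicate block for NC livers and leaving out each library. The 3 tumours that stand apart were also left out together. IgAkCLM HFD control in place of B6 HFD control, and the test of the difference between the NASH pairs, were chosen after seeing the data. Some items of the pathway and marker lists are not reported here.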

Additional observations from a re-analysis of the deposited data

Results flagged for a closer look

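Cyp7b1 stood at 7.27 in MupHe HCC 2, against 8.62 to 8.83 in the other MupHe tumours. Slco1a4 stood at 4.97 in IgAkMup HCC 8, against 4.81 to 4.84 in the other IgAkMup tumours. Each gap to the nearest tumour was large for the range of its group of 4. Of 20 gene and group pairs checked, chance gives such a gap in about 1 in 20.

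The fall of Cyp27a1 in tumours against NASH livers differed between IgAkMup and MupHe by -1.0 (adjusted p = 0.00679 in limma). Of the 10 members 1 passed this test, as did 10% of all genes. Fitted on those groups alone the adjusted p was 0.143, and with quantile normalization the difference was -0.68 (adjusted p = 0.0756).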

How the results depend on the processing

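Of 2620 values of single members under an alternative, 2490 stayed on the same side of the threshold, 2396 of them with the same sign and 94 uncalled ones with another, 61 newly passed, 68 no longer passed and 1 reversed: Cyp27a1 in B6 HFD control against B6 NC was 0.10 with IgAkCLM HFD control in place. The 8 falls in HCC against NASH over both genotypes passed in all 22 alternatives.

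Counts of members called moved as follows. Without a filter they were 1 in IgAkMup against MupHe HCC (2 before), 0 in CD8kMup against MupHe HCC (2) and 0 in MupHe NASH against NC (1). With a minimum mean of 5 they were 2 for the difference between genotypes in HCC against NASH (1) and 1 in IgAkMup NASH against NC (0). With the compared groups fitted alone they were 3 in MupHe HCC against NASH (7), 0 for the difference between genotypes, 0 in IgAkMup and 0 in CD8kMup against MupHe HCC, 3 in MupHe NASH against IgAkCLM HFD control (0), 5 in MupHe and 5 in IgAkMup NASH against NC, and 1 in IgAkMup and 1 in CD8kMup against MupHe NC (0). Median centring gave 2 for the difference between genotypes, and Akr1d1 newly passed in IgAkMup HCC against NASH (adjusted p = 0.0427). Quantile normalization gave 0 for that difference, 1 in IgAkMup against MupHe HCC and 0 in MupHe NASH against NC. Array weights gave 0 in IgAkMup and 1 in CD8kMup against MupHe HCC, 3 in MupHe NASH against IgAkCLM HFD control, 2 in IgAkMup NASH against B6 HFD control (0), 3 in MupHe and 4 in IgAkMup NASH against NC, and 3 for the difference between the NASH pairs (0). Over all 12337 genes, calls there fell to 375 (1249 in the shared model) and 30 (163) in the 2 tumour comparisons. They rose to 1941 (69) in MupHe NASH against IgAkCLM HFD control and 717 (31) in IgAkMup NASH against B6 HFD control. Against NC they rose to 2479 (238) in MupHe and 4961 (1594) in IgAkMup NASH, and to 173 (7) for the difference between pairs. Without the trend they were 1 in IgAkMup against MupHe HCC and 0 in MupHe NASH against NC. With IgAkCLM HFD control in place of B6 HFD control they were 1 against B6 NC (4) and 1 in IgAkMup NASH (0). Calls over all genes were then 285 (2538) and 1068 (31). Other single calls moved too. In CD8kMup HCC against NC, Slco1b2 was lost without a filter (adjusted p = 0.08) and with quantile normalization (0.127). There Akr1d1 and Baat newly passed in the separate fit and with array weights. Cyp7a1 in B6 HFD control against NC was lost without a filter (0.0572) and with quantile normalization (0.0527). Cyp8b1 newly passed in HCC against NASH over both genotypes with median centring and with array weights. The cause was not tested.

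Leaving out each library gave 8 to 9 in HCC against NASH over both genotypes, 8 to 9 in IgAkMup and 6 to 8 in MupHe, 1 to 2 for their difference, 5 to 6 in CD8kMup HCC against NC (7), 1 to 3 in IgAkMup and 0 to 4 in CD8kMup against MupHe HCC, 0 to 1 in NASH against HFD control, 0 to 1 for the difference between its pairs, 2 to 4 in B6 HFD control against NC, and 0 to 1 in each of MupHe and IgAkMup NASH against NC.

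With all genes, the groups fitted alone gave 1210 calls in MupHe HCC against NASH (3784 in the shared model), 3205 in IgAkMup (5408), 13 for their difference (1236), 0 in IgAkMup against MupHe HCC (1249), 862 in NASH against HFD control (163), 1924 in MupHe NASH against NC (238) and 3608 in IgAkMup (1594). They also gave 745 in MupHe NASH against IgAkCLM HFD control (69), and 200 in IgAkMup (2) and 26 in CD8kMup (2) against MupHe NC. The share of higher calls for the difference between genotypes was 48.1%, against 38.1% with median centring and 59.0% with quantile normalization, and in IgAkMup against MupHe HCC 40.7%, against 51.9% with quantile normalization.

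With a replicate block, fitted on the NC livers, 0 members were called in all 3 NC comparisons. Replicate numbers did not pair these samples: of 18 same-numbered pairs 3 had a correlation of deviations over 0.1, in a range from -0.212 to 0.226. No paired analysis was possible for the other groups because their columns carry no number from the titles.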

Other observations

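Nr1d1, a clock repressor, averaged 8.58 in IgAkMup HCC and 6.83 in MupHe HCC, a difference of 1.76 ± 0.50 (adjusted p = 0.0267 in limma), with overlap between the groups. The labels used here give no time of collection. Acaa1b, a peroxisomal thiolase that was lower in tumours than in NASH livers, was higher by 1.60 ± 0.50 in B6 HFD control than in B6 NC (adjusted p = 0.023). Both genes were chosen after their values were seen.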
